A study of Mus musculus with 18 samples.

Results

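The genes of the mitogen-activated protein (MAP) kinase cascade and of its phosphatases were followed in chromatin accessibility data from B cells and T cells of mouse spleen. Members were those regions of the deposited count table whose nearest gene end lay within 50 kb and belonged to a protein-coding gene with a symbol made of Mapk, Map2k, Map3k, Map4k or Dusp and a digit. The rule used positions and names alone and no measured value, though it was chosen with earlier results of these data known. The rule took 110 of 27396 regions, at 52 of the 14977 genes with an assigned region. Of 73 protein-coding genes with such symbols, 21 had no member region, among them Map2k1, Map3k1, Map4k5 and Mapk13. Across the 52 genes, 37 regions covered a gene end, 54 lay inside a gene away from its ends, and 19 lay outside. Another gene end was equally close for 8 regions. The members farthest from a gene end were a Map3k5 region at 44827 bases and a Map4k4 region at 43730 bases, while the next regions of the same loci, at 57812 and 53934 bases, fell outside the rule.

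Accessibility was measured by ATAC-seq, which sequences DNA fragments that a transposase inserts into, most often where chromatin is open. The tissue was frozen spleen of wild-type C57BL/6J mice (genotype wt in every group, with no treatment in the labels), and stained B or T cells were cut out with a laser after tagmentation on the section. The 4 groups were B patches and T patches (n = 5 libraries each, 10 pieces of tissue with about 1000 nuclei per library) and B and T libraries of 100 nuclei captured singly (n = 4 each). Libraries were called technical replicates, so p-values measure only the spread between libraries. The sources used here name neither the stained markers nor the age or number of the animals. A patch is a piece of tissue and can hold other cells than the stained type, and a change in the accessibility of each cell cannot be told apart from a change in the mix of cells.

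MAP kinase signalling runs through layers of kinases, each phosphorylating the next: MAP4Ks start some cascades, MAP3Ks activate MAP2Ks, and MAP2Ks activate the MAP kinases ERK, JNK and p38. Antigen receptors of lymphocytes use all of these branches. Some dual-specificity phosphatases (DUSPs) remove the activating phosphates, and several of their genes are induced by the signal they end.

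Counts per library ranged from 2713677 to 6553535 in B patches, from 2193837 to 7343204 in T patches, from 547333 to 720555 in B libraries of 100 nuclei and from 319481 to 1076765 in T libraries of 100 nuclei. Mitochondrial regions held 18.8 to 33.6% of the counts in B patches and 16.1 to 23.1% in T patches. The labels were checked against defining genes: 7 of 10 B cell marker genes were called higher in B patches, and 9 of 12 T cell marker genes with regions were called higher in T patches, while Cd4 and Trac had no assigned region (edgeR quasi-likelihood F-test, Benjamini-Hochberg adjusted p under 0.05). At 100 nuclei no gene of the whole table passed this test, these markers included. Some markers of other cells also differed between the patch groups, and genes of the same list did not always share a sign. The macrophage gene Adgre1 was higher in B patches (log2 fold change 1.98 ± 0.35 SE, adjusted p = 0.00233 by edgeR) and was 1 of 3 macrophage genes with regions to pass. The 3 of 8 macrophage genes with regions held 0.0171 to 0.0263% of nuclear counts in B patches and 0.00502 to 0.0118% in T patches. Of the dendritic cell genes, Flt3 passed with higher counts in B, and the list held 0.0148 to 0.0269% in B and 0.0038 to 0.0123% in T patches. Of the stromal and endothelial genes, Pecam1 passed with higher counts in T, and that list held 0.0101 to 0.0155% in B and 0.0186 to 0.0302% in T patches. The other genes of that list with regions, Cdh5 and Pdgfrb, had the opposite sign. They gave 2.35 ± 1.02 and 1.58 ± 1.46 and did not pass (edgeR adjusted p = 0.277 and 0.756). No natural killer gene of 3 and no erythroid gene of 1 passed, and the neutrophil genes had no region. The part of these cells in the results on MAP kinase genes was not tested.

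The promoters of 5 member genes are shown because a member region covered each of them: Map4k1, the only member whose promoter region passed the test in patches, and 4 genes whose summed counts gave some of the next smallest p-values. The 250 bases before the start site are printed from RefSeq on GRCm38.p6 (the coordinates of mm10), 5′ to 3′ on the gene's strand. They lie at chr7:28982604-28982853 (plus strand) for Map4k1, chr11:110398852-110399101 (plus) for Map2k6, chr13:30659809-30660058 (plus) for Dusp22, chr2:127335909-127336158 (plus) for Dusp2 and chr12:81781171-81781420 (minus) for Map3k9. Capitals mark matches, on either strand, to the letters GGGCGG (GC box), CCGGAAG (ETS), TGANTCA (AP-1), TGACGTCA (CRE), ATTTGCAT (octamer), CCCNNGGGA (EBF) or TGTGGTT (RUNX).
Map4k1: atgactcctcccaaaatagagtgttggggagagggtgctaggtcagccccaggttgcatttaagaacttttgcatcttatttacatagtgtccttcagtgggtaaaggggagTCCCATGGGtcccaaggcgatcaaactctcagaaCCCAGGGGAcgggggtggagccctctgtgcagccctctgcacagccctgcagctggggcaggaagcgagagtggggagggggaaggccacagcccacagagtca
Map2k6: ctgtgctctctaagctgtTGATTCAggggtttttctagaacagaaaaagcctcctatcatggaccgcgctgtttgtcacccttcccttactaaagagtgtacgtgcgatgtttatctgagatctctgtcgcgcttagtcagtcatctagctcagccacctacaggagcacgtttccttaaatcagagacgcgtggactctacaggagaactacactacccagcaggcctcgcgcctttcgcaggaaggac
Dusp22: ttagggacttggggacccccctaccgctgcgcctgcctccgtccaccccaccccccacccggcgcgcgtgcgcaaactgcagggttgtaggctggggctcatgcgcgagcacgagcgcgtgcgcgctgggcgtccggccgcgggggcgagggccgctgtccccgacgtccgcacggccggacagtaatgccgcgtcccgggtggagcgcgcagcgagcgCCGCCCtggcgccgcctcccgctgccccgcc
Dusp2: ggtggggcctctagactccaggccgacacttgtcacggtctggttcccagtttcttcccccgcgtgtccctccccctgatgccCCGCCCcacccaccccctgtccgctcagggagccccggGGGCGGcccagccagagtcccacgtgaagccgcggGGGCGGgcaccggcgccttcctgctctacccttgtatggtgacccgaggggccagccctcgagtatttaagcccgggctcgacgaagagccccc
Map3k9: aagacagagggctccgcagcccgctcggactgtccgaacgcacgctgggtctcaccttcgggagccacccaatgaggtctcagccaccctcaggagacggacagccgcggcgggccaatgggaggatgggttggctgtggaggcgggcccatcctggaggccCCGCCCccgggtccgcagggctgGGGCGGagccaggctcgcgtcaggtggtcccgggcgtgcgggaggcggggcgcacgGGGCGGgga

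The Map4k1 window held 2 EBF matches and no other match, and the Map2k6 window held 1 AP-1 match alone. Windows of Dusp2 and Map3k9 had 3 GC box matches each, and that of Dusp22 had 1. Entries were found for 43 of the 52 genes, and 38 windows at 36 genes were covered in part by a member region. Windows on chromosome 18, where Map3k2 and Map3k8 lie, were left out of the 38. They were not left out of the 43 genes or of the wider sets of windows below. A GC box match stood in 27 of these 38 windows, in 64.5% of the 9956 windows covered by any region of the table and in 32.7% of all 32851 windows. EBF letters stood in 4 of the 38 (Map4k1, Map3k5, Mapk11 and Mapk14), in 6.7% of covered windows and in 5.6% of all windows. The AP-1 letters stood in 1 of the 38, in 3.31% of covered windows and in 6.75% of all. ETS letters were found in 1 member window, against 16.6% of covered and 6.91% of all windows, and CRE letters in 2, against 3.25% and 1.55%. Neither octamer nor RUNX letters were found in the member windows, against 1.33% and 3.03% of covered windows and 1.6% and 4.4% of all. The median GC content was 66.2% in the member windows, 61.6% in covered windows and 52.4% in all.

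Few member genes differed between B and T patches. Counts summed over a gene's regions passed the test for 2 of 51 genes tested, Map4k1 and Dusp16, both higher in B, beside 4.3% of the 14371 genes tested in all (edgeR quasi-likelihood F-test, adjusted p under 0.05). By direction, the background was 2.46% called higher in B and 1.84% higher in T. Region by region, 2 of 107 passed, 1 at each of these genes and both higher in B, beside 2.27% of 25712 regions (1.22% higher in B and 1.05% higher in T). An unadjusted p under 0.05 was reached by 8 of the 51 genes, against 14.5% of all genes, and by 11 of the 107 regions, against 12.7%. Libraries of the 2 cell types did not overlap for 4 genes (Map4k1, Dusp16, Map2k6 and Map3k19, each higher in B), against 8.32% of all genes (4.59% higher in B and 3.74% higher in T). Regions without overlap numbered 5 higher in B and 2 higher in T, against 4.33% and 3.69% of all regions, or 7 against 8.03% in all. These shares lie near the background. In a joint fit of all 18 libraries no region or gene of the whole table was called in patches, members included. The median log2 fold change of the 51 genes was -0.01, beside 0.00 over all genes, and the median of its absolute value was 0.263, beside 0.426. Fitted values were above 0 for 25 genes, beside 50.1% of all genes.

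**Figure D1:**
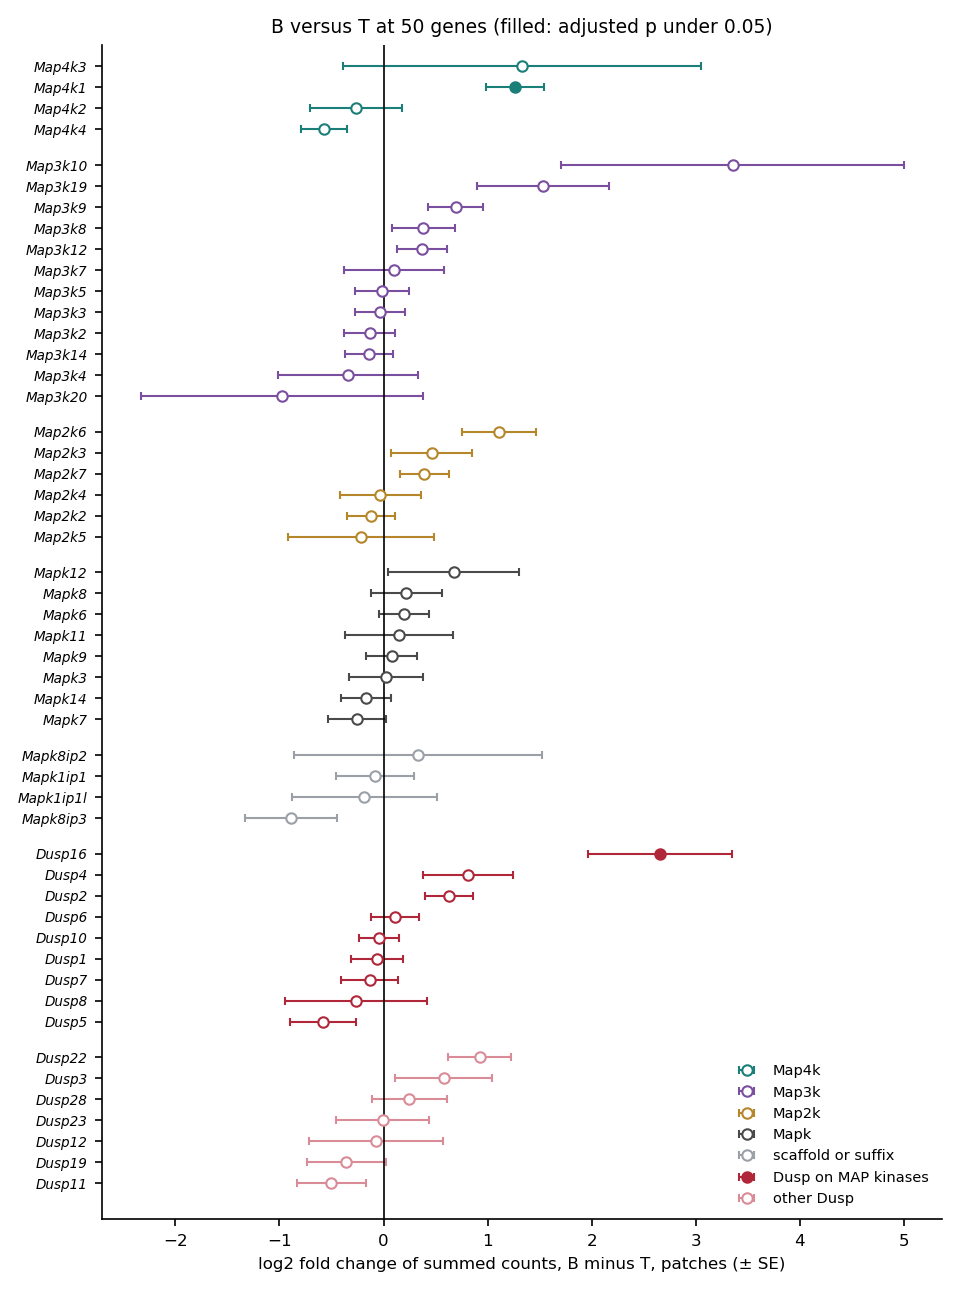
Log2 fold change of summed counts, B minus T, in patches (x axis, ± SE) for 50 of the 51 genes tested (y axis), coloured by class and ordered by value within it; filled points passed the edgeR test. Map4k1 at 1.26 and Dusp16 at 2.66 are the filled points, and most other genes lie close to 0.

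Map4k genes stand at the head of the cascade, and 4 of the 5 had member regions, 14 in all. Map4k1 encodes HPK1, a kinase of blood cells that restrains antigen receptor signalling. Its summed normalized CPM (CPM of nuclear counts only) were 315, 287, 249, 314 and 226 in the B patches and 119, 46.7, 119, 112 and 181 in the T patches. Every B library lay above every T library. The means were 278 ± 39.8 and 116 ± 47.8 (SD, n = 5 each), a log2 fold change of 1.26 ± 0.28 SE, or 2.4-fold (edgeR adjusted p = 0.0112).

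Most counts of Map4k1 lay in 1 of its 4 regions, chr7:28982380-28982940. It covers the whole promoter window printed above and starts 330 bases inside the outermost annotated end. Here the normalized CPM (CPM of all counts, mitochondrial ones included) were 204, 178, 145, 194 and 128 in B and 75.2, 36.4, 55.4, 82.5 and 103 in T. Again no T library reached the lowest B library. Means were 170 ± 32.2 and 70.6 ± 25.7, with a log2 fold change of 1.26 ± 0.29 SE (edgeR adjusted p = 0.0224). The other 3 regions lie near the far end of the gene, at mean levels of 7.51 to 20.9 CPM in B and 5.21 to 7.22 in T, and none passed (adjusted p from 0.687 to 0.966). The summed call was kept with any 1 patch library left out (adjusted p from 0.00605 to 0.0415), whereas leaving out B library 1, B library 4 or T library 3 ended the region's call (adjusted p = 0.0694, 0.064 and 0.0721).

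Map4k4 encodes a kinase of the same family that acts toward JNK and is widely expressed, and it had 8 member regions, the most of any gene. Summed normalized CPM were 143, 117, 159, 195 and 114 in B patches and 253, 238, 174, 234 and 187 in T patches. T libraries were mostly the higher ones, and 1 B library overlapped the T range. The log2 fold change of -0.58 ± 0.22 SE did not pass (edgeR adjusted p = 0.192).

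Regions of Map4k4 differed in sign. The region chr1:39917918-39918188, inside the gene and 17016 bases from its nearest end, had 15.4, 13.5, 11.2, 6.51 and 4.79 normalized CPM in B and 51.6, 53.2, 33, 27.2 and 33.9 in T. All T libraries lay above all B libraries there, with a log2 fold change of -1.95 ± 0.53 SE that just missed the threshold (edgeR adjusted p = 0.0578). It passed with DESeq2 (adjusted p = 0.00096), with scaling to library size alone (0.04) and without B library 2 (0.0405) or both patch libraries numbered 2 (0.0342). The region over the gene's end, chr1:39900562-39900904, gave 36.9 ± 10.3 in B and 40 ± 11.4 in T (mean ± SD, n = 5 each; -0.12 ± 0.39, adjusted p = 0.972). Near the other end, chr1:40022823-40023036 gave the opposite sign, 16 ± 6.38 in B and 4.01 ± 3.12 in T (1.98 ± 1.01, adjusted p = 0.443). The sequences of these Map4k4 regions and of the Dusp16 region were not analysed here, and whether a region lies in an exon or an intron was not assigned.

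For Map4k2 and Map4k3, each with 1 region, the summed values gave log2 fold changes of -0.27 ± 0.44 and 1.33 ± 1.72 (edgeR adjusted p = 0.894 and 0.852). Map4k3 was thinly read in patches, at 6.8 ± 9.36 normalized CPM in B and 2.66 ± 3.8 in T (mean ± SD, n = 5 each).

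**Figure D2:**
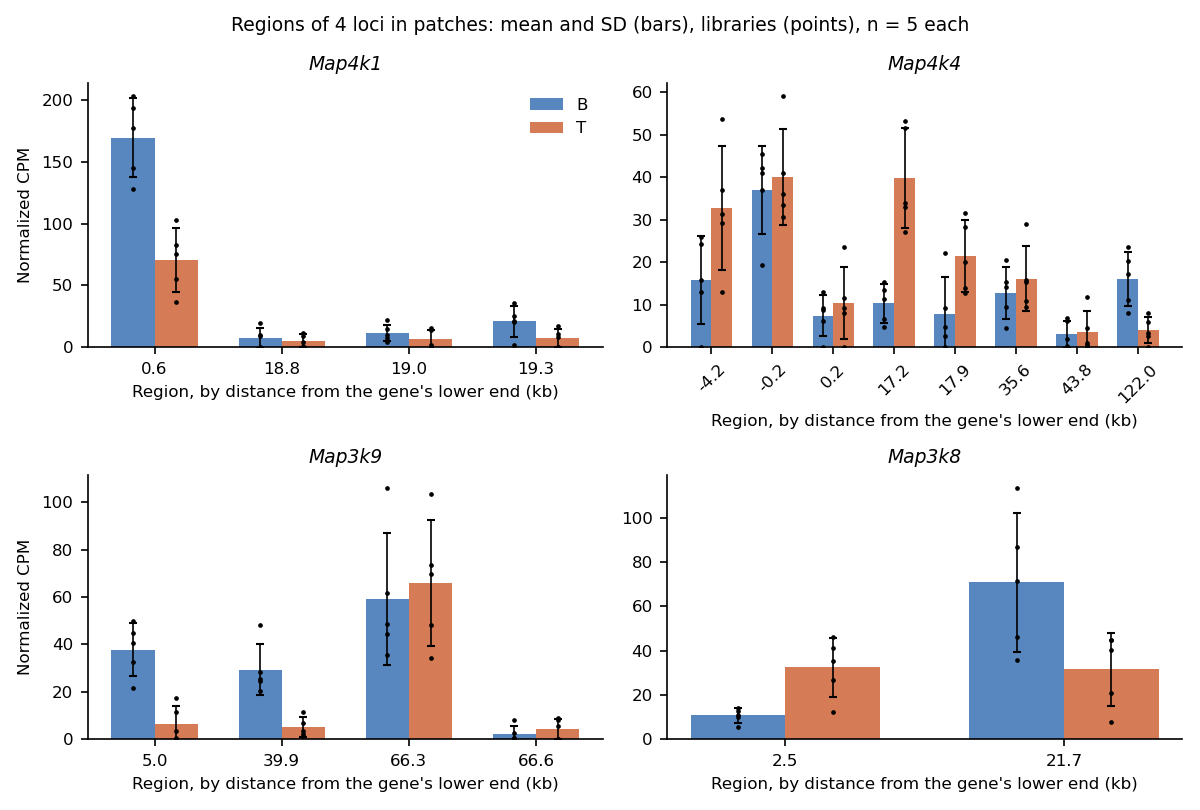
Normalized CPM (y axis, CPM of all counts) of each member region in B and T patches at Map4k1, Map4k4, Map3k9 and Map3k8, with the regions in order along the x axis, labelled by the distance of their middle from the gene's lower-numbered end in kb. Bars are means with SD and points are libraries (n = 5 each); 1 tall Map4k1 region is higher in B, and Map4k4, Map3k9 and Map3k8 each hold regions with values on both sides.

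Map3k genes are the middle layer where stress, cytokine and receptor signals enter, and 12 of 18 had member regions, 24 in all. None of the 12 genes passed, with 6 fitted values above 0 and 6 below. The 3 genes with the highest summed levels of the layer did not pass. Map3k3, which encodes MEKK3, had 396 ± 96.6 nuclear normalized CPM in B and 406 ± 128 in T over its 2 regions (edgeR adjusted p = 0.979). Map3k14, which encodes the NF-kB inducing kinase NIK, had 254 ± 61.6 and 280 ± 71 (-0.14 ± 0.23, adjusted p = 0.892). Map3k12, encoding the kinase DLK, had 352 ± 69.3 and 272 ± 87.5 (0.37 ± 0.24, adjusted p = 0.565; SD, n = 5 each for all 3 genes). The 1 region given to Map3k12 lies 799 bases outside the gene and covers a promoter window of its neighbour Tarbp2, not one of Map3k12.

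Map3k9 encodes MLK1, a mixed-lineage kinase toward JNK. Its summed normalized CPM were 196, 133, 141, 153 and 230 in B patches and 165, 104, 105, 80.4 and 73.6 in T patches. T library 1 overlapped the B range, and the log2 fold change of 0.69 ± 0.27 SE did not pass (edgeR adjusted p = 0.194). The region over the promoter printed above, chr12:81781027-81781530, had like means, 59.2 ± 27.8 in B and 65.8 ± 26.5 in T (-0.15 ± 0.36, adjusted p = 0.96).

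Map3k9 had 4 regions. Besides the promoter region, 2 inside the gene are given here, and both had other values than the promoter. At chr12:81754790-81754998, 26172 bases from the start site, normalized CPM were 47.9, 28.5, 20.4, 24.5 and 25.4 in B and 6.83, 11.6, 1.98, 1.25 and 3.32 in T. At chr12:81719814-81720151, near the far end, they were 40.5, 21.6, 49.7, 44.6 and 32.6 in B and 17.5, 0.0, 0.395, 3.49 and 11.3 in T. In both regions every B library lay above every T library. Log2 fold changes were 2.57 ± 0.74 SE and 2.53 ± 0.85 SE, with edgeR adjusted p of 0.0714 and 0.143. DESeq2 called both (adjusted p = 0.00196 and 0.0179), and edgeR called the first without T library 2 (adjusted p = 0.0205).

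Map3k8 encodes TPL2, the MAP3K through which Toll-like and TNF receptors reach ERK. Its region over the gene's end had 70.8 ± 31.4 normalized CPM in B and 31.6 ± 16.6 in T (log2 fold change 1.16 ± 0.45 SE), and its region inside the gene had 10.7 ± 3.26 in B and 32.4 ± 13.3 in T (-1.60 ± 0.57 SE; SD, n = 5 each). The 2 regions had opposite signs and neither passed with edgeR (adjusted p = 0.224 and 0.175), while DESeq2 called the second (0.0207). Summed over both, Map3k8 gave 0.38 ± 0.30 (edgeR adjusted p = 0.684).

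Unequal differences along a gene were tested by setting each region against the other regions of its gene, an analysis added after the data were examined. With edgeR, 0 of 87 member regions and 0 of 31 member genes with more than 1 region passed after adjustment, beside 0.13% of 16185 regions and 1.05% of 5919 genes. Unadjusted p-values under 0.05 were found for Map3k8 (0.00155), Map3k9 (0.00358) and Dusp10 (0.0369), and their adjusted p by edgeR were 0.0897, 0.138 and 0.479. Map4k4 gave an unadjusted p of 0.0827 and an adjusted p of 0.655. For Map4k1 they were 0.937 and 0.994, so its regions were not shown to differ in their B versus T change.

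Of the other Map3k genes, Map3k19 had 1 region, 3995 bases outside the gene. In each library the summed normalized CPM were 37.7, 28.6, 36, 26.2 and 18.1 in B patches and 10.1, 8.73, 6.65, 11.4 and 13.5 in T patches. The groups were apart, and the log2 fold change of 1.54 ± 0.64 SE did not pass (edgeR adjusted p = 0.237). DESeq2 called its region (adjusted p = 0.0439). Map3k10, at 7.92 ± 5.28 in B and 0.728 ± 1.14 in T (mean ± SD, n = 5 each), had the highest fitted value of the tested member genes and a wide error (3.36 ± 1.64, edgeR adjusted p = 0.367). Map3k2, Map3k4, Map3k5, Map3k7 and Map3k20 gave log2 fold changes from -0.98 to 0.10, with edgeR adjusted p from 0.868 to 0.992.

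Map2k genes encode the kinases that phosphorylate the MAP kinases themselves, and 6 of 7 had member regions, 14 in all. None passed. Map2k6, the gene of the p38 kinase MKK6, came nearest. B patches had summed normalized CPM of 76.1, 116, 76.7, 81.5 and 98.4, and T patches 21.9, 33.9, 44.9, 67.4 and 39.4. No T library reached the B range, and the means of 89.8 ± 17.3 and 41.5 ± 16.8 gave 1.11 ± 0.35 SE (edgeR adjusted p = 0.092).

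Map2k6 had 3 regions, and each had a fitted value above 0. The region over its promoter, chr11:110398871-110399179, gave 0.81 ± 0.47, the one 28143 bases downstream inside the gene 1.80 ± 1.16, and the one 26256 bases before it 1.66 ± 1.23 (edgeR adjusted p = 0.55, 0.62 and 0.708). The summed counts passed with DESeq2 (adjusted p = 0.0402), without T library 4 (0.0478) and with regions given to the nearest protein-coding gene (0.0236).

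The remaining Map2k genes had their main region over the promoter, and none reached an unadjusted p under 0.05 in the summed counts. Map2k7, a JNK kinase, had 231 ± 65.5 normalized CPM in B and 175 ± 39 in T (0.39 ± 0.24, edgeR adjusted p = 0.522). Map2k3, the other p38 kinase, gave 0.46 ± 0.39 (adjusted p = 0.716), and Map2k2, the ERK kinase MEK2, -0.12 ± 0.23 (adjusted p = 0.919). The JNK kinase gene Map2k4 gave -0.03 ± 0.39 and the ERK5 kinase gene Map2k5 -0.22 ± 0.70 (edgeR adjusted p = 0.987 and 0.955).

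Mapk genes encode the kinases at the end of the cascade, and 10 of 13 had member regions, 16 in all. None of 9 tested genes passed or reached an unadjusted p under 0.05, and edgeR adjusted p ran from 0.759 to 0.99. Mapk10 was too thinly read to be tested. Mapk3, which encodes ERK1, had 69.1 ± 27.5 normalized CPM in B and 68.1 ± 18 in T (mean ± SD, n = 5 each), a log2 fold change of 0.03 ± 0.36. Mapk14, the gene of p38 alpha, gave -0.17 ± 0.24, and the JNK genes Mapk8 and Mapk9 gave 0.22 ± 0.34 and 0.08 ± 0.25. Mapk6, which encodes the atypical kinase ERK3, had 224 ± 70.8 in B and 195 ± 32 in T (0.20 ± 0.24), and Mapk7, the gene of ERK5, had 139 ± 53 and 166 ± 47.8 (-0.25 ± 0.28). Mapk12, which encodes p38 gamma, had the lowest p of the layer with 0.67 ± 0.63 (unadjusted p = 0.297), and Mapk11 gave 0.15 ± 0.52.

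Scaffold and related genes of the symbol rule had 5 regions at 4 of 6 genes, and none passed. Mapk8ip3 encodes JIP3, a scaffold of the JNK branch. The 5 B patches had 60.2, 13.3, 33, 37.2 and 58.2 summed normalized CPM, and the 5 T patches 79.2, 102, 106, 30.9 and 56.9. The groups overlapped (-0.89 ± 0.44 SE, edgeR adjusted p = 0.376), and its region over the promoter gave -0.95 ± 0.47 (adjusted p = 0.41). Mapk1ip1, Mapk1ip1l and Mapk8ip2 gave -0.08 ± 0.38, -0.18 ± 0.70 and 0.33 ± 1.19 (edgeR adjusted p = 0.97, 0.963 and 0.96). The Mapk1ip1 region lies equally close to Ppp2r2d.

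A list of 10 genes was taken for the DUSPs that act on MAP kinases: Dusp1, Dusp2, Dusp4 to Dusp10 and Dusp16. Of these, 9 had member regions, 23 in all. Dusp16, which encodes MKP-7, a phosphatase of JNK and p38, was the only one to pass. Summed normalized CPM (CPM of nuclear counts only) were 83.3, 35, 82, 163 and 71.2 in B patches and 27.8, 12.3, 4.26, 0.326 and 24.2 in T patches. The lowest B library stood above the highest T library. Means of 86.8 ± 46.7 and 13.8 ± 12 (SD, n = 5 each) gave 2.66 ± 0.69 SE, or 6.32-fold (edgeR adjusted p = 0.0319).

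These counts came from 1 region, chr6:134802623-134803047, which lies inside Dusp16, 4016 bases from its nearest end and 9995 bases from its nearest listed start site. On the scale of all counts it had 65.5 ± 35.4 normalized CPM in B and 10.6 ± 9.28 in T (2.62 ± 0.68 SE, edgeR adjusted p = 0.0433). Leaving out B library 1, 3, 4 or 5 or T library 3 ended the call of the summed counts (edgeR adjusted p from 0.059 to 0.138), and that of the region also without T library 2 or 5 (0.0642 and 0.0566) and with scaling to library size alone (0.0593). With regions given to the nearest protein-coding gene, Dusp16 took 3 regions, the other 2 being those nearest to the lncRNA gene 1700055D16Rik, and the log2 fold change was 1.33 (edgeR adjusted p = 0.0158).

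Dusp2, the gene of the early-induced phosphatase PAC-1, was the most accessible member per kb of region, at 582 normalized CPM per kb in B patches and 376 in T patches, with 1 region over its promoter. Its summed normalized CPM were 314, 454, 319, 232 and 195 in B and 207, 160, 201, 198 and 211 in T. B libraries ranged widely and 1 lay within the T range. The log2 fold change of 0.63 ± 0.23 SE did not pass (edgeR adjusted p = 0.157), and with the nearest protein-coding gene, which gave it 3 regions, it was 0.81 (adjusted p = 0.0323).

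Dusp4 and Dusp5, inducible nuclear phosphatases, had values of opposite sign. Dusp4 had 87.4 ± 15.6 normalized CPM in B and 49.6 ± 29.1 in T (0.81 ± 0.44, edgeR adjusted p = 0.44), and Dusp5, a phosphatase of ERK, had 83.3 ± 21.3 and 124 ± 43.5 (-0.58 ± 0.32, adjusted p = 0.454; SD, n = 5 each). Dusp1, Dusp6, Dusp7, Dusp8 and Dusp10 gave log2 fold changes from -0.26 to 0.11 (edgeR adjusted p from 0.921 to 0.971). Dusp6, an ERK phosphatase, was among the more accessible of these at 292 ± 58.5 in B and 270 ± 84.8 in T. Dusp10, which acts on p38 and JNK, had 226 ± 18.2 and 232 ± 33.4, and its outlying region, 42466 bases from the gene, was apart between the groups with higher values in T (-2.22 ± 1.09, edgeR adjusted p = 0.41).

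The other DUSPs were those outside that list of MAP kinase phosphatases. Of these, 7 of 14 genes had member regions, 14 in all, and none passed. Dusp22 encodes JKAP, a phosphatase of lymphocyte receptor signalling. Its summed normalized CPM were 144, 266, 125, 131 and 151 in B patches and 56.3, 141, 61.1, 83.4 and 90.3 in T patches. T library 2 overlapped the B range, and the log2 fold change was 0.92 ± 0.30 SE (edgeR adjusted p = 0.102). It passed without T library 2 (adjusted p = 0.0223) and without both patch libraries numbered 2 (0.0286), the shallowest of each cell type. The region over the printed promoter, chr13:30659721-30660410, gave 0.87 ± 0.34 (adjusted p = 0.231). Dusp11 gave -0.50 ± 0.33, Dusp3 0.58 ± 0.47 and Dusp19 -0.36 ± 0.38 (edgeR adjusted p = 0.593, 0.696 and 0.807). Dusp12, Dusp23 and Dusp28 gave -0.07, -0.01 and 0.25 (edgeR adjusted p from 0.879 to 0.996).

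**Figure D3:**
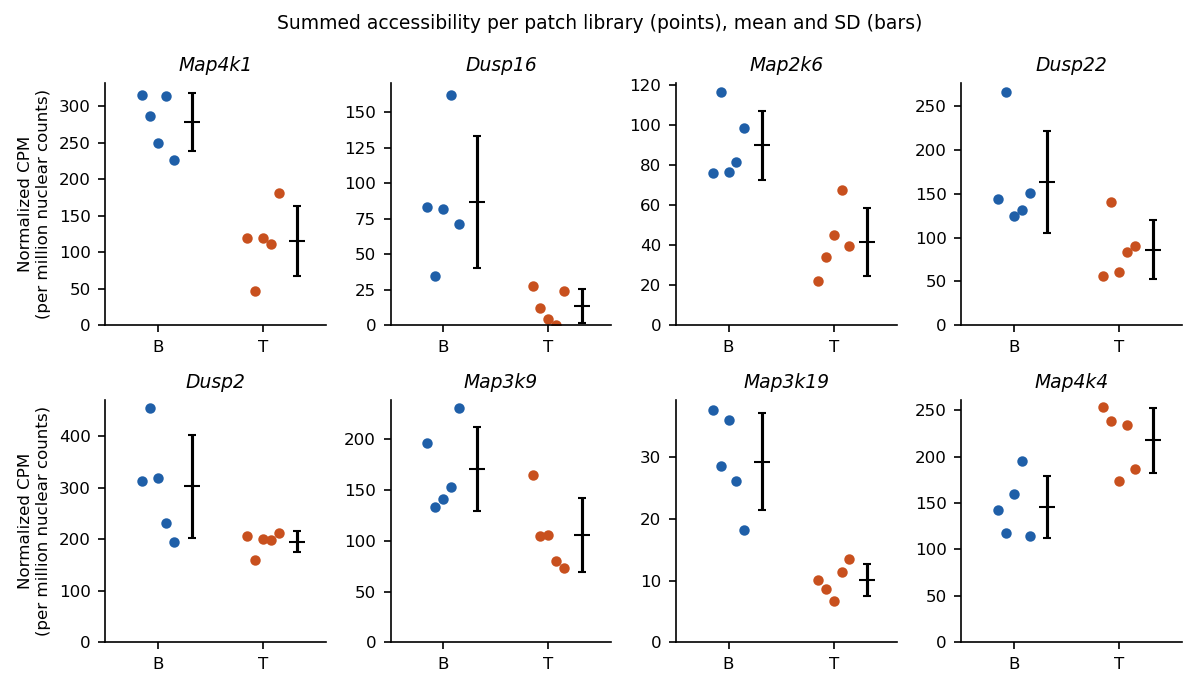
Summed nuclear normalized CPM (y axis, from 0) of 8 member genes in each B and T patch library (points), with mean and SD beside them (n = 5 each). The B points of Map4k1, Dusp16, Map2k6 and Map3k19 lie above all T points, while those of Dusp22, Dusp2, Map3k9 and Map4k4 overlap the T points.

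How often members were read went with their position. The 37 regions over a gene end had a median of 61.3 normalized CPM in patches, and all 37 had reads in all 10 patch libraries, beside 81.4% of the 7493 such regions of any gene. Of the 54 regions inside genes, with a median of 13.3 CPM, 19 had reads in all 10, beside 42.3% of all inside regions. Members took a like share of nuclear counts in every group: 0.601 ± 0.023% in B patches, 0.569 ± 0.0294% in T patches (SD, n = 5 each), and, at 100 nuclei, 0.575 ± 0.0579% for B and 0.598 ± 0.115% for T libraries (SD, n = 4 each).

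Genes around the cascade that the symbol rule leaves out were taken from a list of 63, of which 58 had regions and 57 were tested. In patches 3 were called higher in B and 0 higher in T with edgeR, beside 2.46% and 1.84% of all genes (4.3% in either direction). Fitted values were above 0 for 22 and below for 35, beside 50.1% of all genes above 0. The median log2 fold change was -0.07. Rasgrp3, a Ras exchange factor of lymphocytes, gave 2.2 ± 0.28 (edgeR adjusted p = 0.000206), with 231 ± 33.7 normalized CPM in B and 50.4 ± 18.6 in T. Mef2c, a transcription factor that p38 phosphorylates, gave 2.56 ± 0.37 (adjusted p = 0.000455). Ets1, a transcription factor that ERK phosphorylates, gave 1.14 ± 0.22 (adjusted p = 0.00534). In all 3 genes the libraries of B and T did not overlap. No gene passed among the 6 tested Ras GAPs, 5 of Raf and its scaffolds, 9 other upstream kinases, 9 downstream kinases and 7 inhibitors. Tnik, a kinase related to Map4k4, had no overlap between the groups, at 32.8 ± 17.2 in B and 85.3 ± 40.6 in T, and did not pass (-1.37 ± 0.47, edgeR adjusted p = 0.12).

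At 100 nuclei no member was called in the main fit, which used the libraries of that size alone. Of 51 genes 0 passed and 3 had an unadjusted p under 0.05, beside 0.0% and 6.73% of all genes. Of 107 regions 0 passed and 5 had an unadjusted p under 0.05, beside 0.0156% and 5.5% of all regions (edgeR). DESeq2 called 0 member genes and 0 member regions. The joint fit of all 18 libraries called 26 of 107 member regions, beside 6954 of 25712 regions in all. It called 6 of 51 member genes, beside 2396 of 14371 genes in all. Few member regions were read: 40 to 51 of 110 per B library and 14 to 55 per T library, with 20 and 14 in T libraries 3 and 4. Leaving those T libraries out of the main fit gave 0 member calls too. In a library with 0 counts, the 3 counts that a zero allows correspond to 4.19 to 12.4 CPM of nuclear counts. These CPM are not scaled by TMM, unlike the normalized CPM given elsewhere, and cover counting error only.

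Counts at 100 nuclei are given as they stand, without fold changes where a group was at 0. Dusp16 had 0, 64, 52 and 17 counts in the B libraries and 0 in each T library (unadjusted p = 0.0231, edgeR adjusted p = 0.49). Counts were thus on the same side as in patches, in 3 of 4 B libraries. Map4k3 had 140 counts in 2 B libraries and 0 in T, and Mapk8ip2 75 counts in 2 B libraries and 0 in T (edgeR adjusted p = 0.49 for both). The Map3k9 region at chr12:81754790-81754998 had 39, 112, 0 and 22 counts in B and 0 in each T library (edgeR adjusted p = 0.355). Over the whole table, T libraries 3 and 4 had reads in 3941 and 3300 regions, against 7614 to 10954 in B libraries. Of the 5 member regions with an unadjusted p under 0.05 (edgeR), 4 had counts in B libraries alone (at Map3k9, Map4k3, Dusp16 and Map2k2). The other had counts in 1 T library alone. That one, chr17:26508075-26508240 inside Dusp1, an early-induced phosphatase gene, had 167 counts in T library 1 and 0 in every other library (unadjusted p = 0.0416, edgeR adjusted p = 0.355). Likewise, a region 902 bases outside Dusp6 had 90 counts in T library 1 alone, and the outlying Dusp10 region had 62 in T library 2 alone (edgeR adjusted p = 0.355 for both). A region 693 bases outside Dusp1 had 6, 15, 48 and 1 counts in B and 0 in T (unadjusted p = 0.0551), and was the only member region whose groups did not overlap, beside 1.18% of all regions (1.05% higher in B). Of the summed member genes, 0 of 51 had groups that did not overlap, beside 2.21%.

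Map4k1 had 23, 147, 86 and 155 counts in B and 64, 192, 0 and 79 in T, so the groups overlapped (log2 fold change 1.08 ± 1.44 SE). Map4k4 had 58, 75, 71 and 10 in B and 206, 205, 300 and 1 in T, with 3 T libraries above all B libraries and the last below (-0.97 ± 1.49 SE). Reads in all 8 libraries were found for 4 member genes, Map4k4, Map3k3, Map3k12 and Dusp7. No reads were found in any for Map3k19 and Mapk10. Fitted values had the same sign in patches and at 100 nuclei for 22 of 50 member genes with reads, or 44.0%, beside 58.2% of all genes, and these are signs of values that mostly did not pass.

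**Figure D4:**
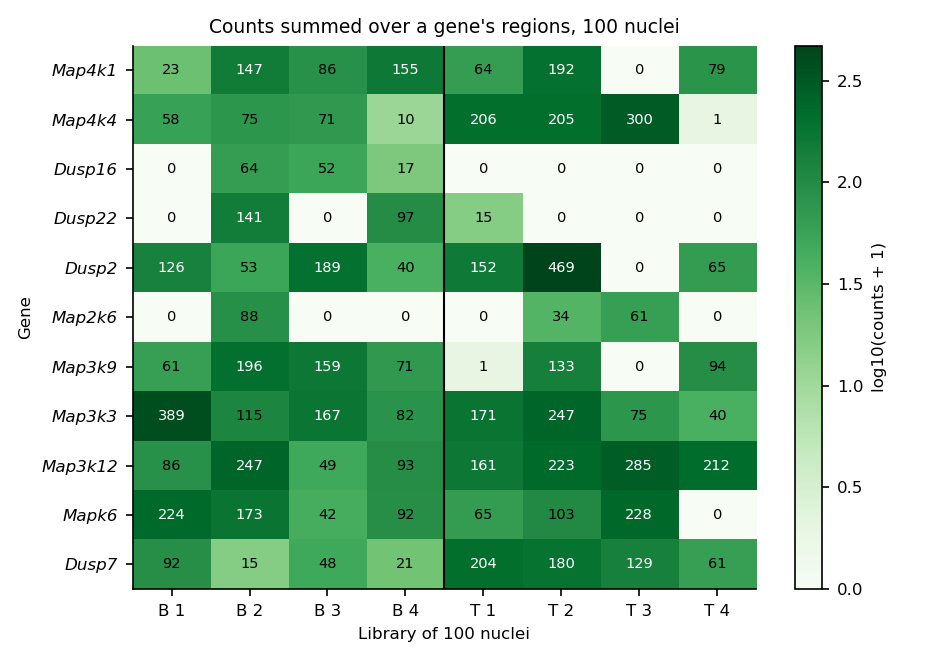
Counts summed over the regions of 11 member genes (rows) in each library of 100 nuclei (columns, 4 B left of the line and 4 T right), with the count printed and the shade on a log10(counts + 1) scale. Dusp16 has counts in 3 B libraries and 0 in T, and zeros also stand among genes that are well read in patches, such as Dusp22 and Map2k6.

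The difference of B versus T between the capture sizes was tested on all 18 libraries. None of the 51 member genes passed, beside 0.418% of all genes, and 7 had an unadjusted p under 0.05, beside 20.4% (edgeR). The lowest adjusted p were those of Mapk1ip1l (0.0802), Map3k20 (0.0864), Mapk8ip2 (0.0882) and Dusp16 (0.0971), genes with counts in 1 to 3 of the 8 libraries of 100 nuclei. DESeq2 called 2 of the 51, Mapk1ip1l and Dusp16, beside 1471 of 14371 genes in all.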

How the data were processed

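The authors deposited 1 table of raw whole-number counts for 27396 regions in 18 libraries. The build was mm10 and the tools named, per the submitters' processing notes, were MACS2 2.2.7.1, Bowtie2 2.4.5, Trimmomatic 0.36, Picard, R 4.1.0, SAMtools 1.14, bcl2fastq 2.20 and deepTools 3.5.2. The sources used here do not say how regions were called, duplicates treated or cut sites shifted, nor whether coordinates start at 0 or 1. Counts are not independent molecules.

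Each region was given the gene of GRCm38.p6 with the nearest end within 50 kb (95.1% of regions). Regions or genes past filterByExpr (minimum count 10, 4 groups) were scaled by TMM and tested with the quasi-likelihood F-test of edgeR 4.0.16 (R 4.3.3), with p-values adjusted by Benjamini-Hochberg over all of them and a threshold of 0.05. B and T were fitted within 1 capture size at a time, and only the difference between sizes used all 18 libraries. Gene tests used counts summed over a gene's regions with nuclear library sizes. Standard errors follow from the log2 fold change and the square root of F. Scripts were tested on simulated data. Within-gene tests used diffSpliceDGE.

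The named genes were every called member, Map4k4 and, in each class, the 4 with the smallest p and the 2 with the highest level per region; others are given in brief, and 1 gene is not reported here. The members and lists were chosen with earlier results of these data known. Alternatives were DESeq2 1.42.0, other scaling, filters, fits and assignments, and each library left out. Replicate numbers were not taken as pairs: deviations of same-numbered patches correlated by -0.00722 to 0.0332, and those at 100 nuclei by -0.00654 to 0.00946.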

Additional observations from a re-analysis of the deposited data

Results flagged for a closer look

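Single libraries stood far from the rest of their group in 5 of 36 groups of values examined for outlying libraries. The cut-offs mark about 1 group in 20 by chance if values are normally distributed. At 100 nuclei, a gene with reads in only 1 library of a group is always marked. The 5 of 36 therefore cannot be set against 1 in 20. All values are summed nuclear normalized CPM. In T patches, library 2 had 160 at Dusp2, and the nearest other library had 198. In B patches, library 2 had 266 at Dusp22, and the nearest had 151. At 100 nuclei, T library 1 had 28.3 at Dusp22 and 24.5 at Mapk12, and B library 2 had 262 at Map2k6, while the other libraries of those groups had 0.0. The causes were not tested.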

How the results depend on the processing

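In patches, 2 member regions were called by edgeR, 7 with DESeq2, 0 in the joint fit of all 18 libraries, 1 with the replicate number as a block, 4 without both patch libraries numbered 2, and from 0 to 3 with 1 library left out. Of the member genes 2 were called, against 0 in the joint fit, 4 with the nearest protein-coding gene, and from 1 to 3 with 1 library left out. At 100 nuclei 0 regions and 0 genes were called, against 26 and 6 in the joint fit, and 0 to 0 with 1 library left out. For the difference between capture sizes 0 genes were called, 2 with DESeq2, and from 0 to 3 with 1 library left out. The causes were not tested. With the replicate block Dusp16 lost its call (adjusted p = 0.107) and Dusp22 gained one (0.0453), so the number of genes stayed at 2. Over all regions in patches, the calls were 583 in the main fit, 2120 with DESeq2, 0 in the joint fit and 215 with the block. Over all genes they were 618, 1161, 0 and 466, and 372 with regions within 10 kb. Without both patch libraries numbered 2, 1156 of 25712 regions were called. The nearest protein-coding gene gave 435 of 11144 genes, with 55 member genes tested. With 1 patch library left out, the calls ran from 259 to 673 over all regions and from 398 to 730 over all genes. Over all genes at 100 nuclei the calls were 0, 121 with DESeq2 and 2396 in the joint fit (6954 against 4 over regions). For the difference between sizes they were 60, 1471 with DESeq2, and from 0 to 1204 with 1 library left out. Scaling to library size alone moved the median of all regions in patches from -0.03 to -0.19 and the split of calls from 314 higher in B and 269 in T to 232 and 359. Of 34 named values 7 changed sign in some setting, none of them called: Map4k3 to -0.379 with the nearest protein-coding gene, Mapk9 to -0.0718 in the joint fit, Mapk1ip1 to 0.0898 and Mapk8ip2 to -0.989 without both patch libraries numbered 2. With 1 library left out, values ran from -0.105 to 0.0327 for Dusp10, from -0.241 to 0.0183 for Map3k14, from -0.0551 to 0.218 for Mapk9, from -0.286 to 0.0637 for Mapk1ip1, from -0.434 to 0.0425 for Mapk1ip1l and from -0.68 to 2.97 for Mapk8ip2. At 100 nuclei 14 to 55 of the 110 member regions had reads in a library, which limits what can be compared there.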
